A study of Homo sapiens with 16 samples.

Results

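Intraciliary transport carries cargo along the microtubules of the primary cilium, and the BBSome is the adaptor that couples membrane proteins to it. The 33 genes described here were taken by symbol from the 28277 symbols of the expression tables: 12 subunits of the IFT-B complex, 5 of the IFT-A complex, 7 of the BBSome, 3 chaperonin-like genes that help to assemble the BBSome, 5 motor genes and ARL6, the GTPase that recruits the BBSome to membranes. They were measured in INA6 and JJN3, 2 established human multiple myeloma cell lines labelled as plasma cells. In each line KANSL2 was repressed by CRISPR interference, in which an inactive Cas9 (dCas9) fused to a repressor domain is guided to a promoter, and the control cells carried the same system with a non-targeting guide. Each line had 3 knockdown and 3 non-targeting RNA libraries, all labelled untreated, 12 in all, and the labels name no clone, guide number or time after transduction for them. KANSL2 belongs to the NSL complex, the chromatin complex of the histone H4 acetyltransferase KAT8, and the series' purpose was to study KANSL2 in multiple myeloma.

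As background, IFT-B is known for movement towards the ciliary tip, powered by kinesin-2, and IFT-A for the return to the base, powered by dynein-2. The BBSome rides on these trains and removes membrane proteins such as receptors from the cilium. Plasma cells belong to the blood lineage, whose cells have long been described as lacking a primary cilium, although several of these genes are also known to act in vesicle traffic, and IFT20 is known to act at the immune synapse of T cells. In other cell types, many ciliary genes carry an X-box, the DNA element bound by RFX transcription factors, near their start site.

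RefSeq (GRCh38.p14) gave a promoter of 300 bases, 250 before and 50 after the start site, for 30 of the 33 genes. IFT22, WDR35 and BBS9 had no entry. The X-box core GTTGCC, searched on both strands, was found in 13 of these 30 promoters (43.3%), against 12.2% of 27305 promoters of the table and 12.7% of the 10452 promoters of genes tested in either line. The longer form, GTNNCC followed after 0 to 3 bases by GGNNAC, was found in 4 (ARL6, IFT57, IFT122 and WDR19; 13.3%, against 3.82% of all promoters). In ARL6 and IFT122 it overlaps the core. These windows show the core, and its partner where the longer form is present, in capitals, read 5′ to 3′ on the strand that holds GTTGCC:
ARL6, chr3:97764726-97764755, plus strand: aagctcctGTTGCCaaGGGAACggtgcctg
IFT122, chr3:129440204-129440233, plus strand: gcatgtacGTTGCCaggGGTAACgcaggta
BBS1, chr11:66510628-66510657, plus strand: cggggccgGTTGCCaggacgacgcctgcga
BBS5, chr2:169479472-169479501, plus strand: ggcggcccGTTGCCttggagccagagagac
TTC8, chr14:88824609-88824638, plus strand: cgtcgcggGTTGCCgggcagagtcggacgc
BBS10, chr12:76348615-76348644, minus strand: ggcttaggGTTGCCgctccaggcacagctg
IFT27, chr22:36776147-36776176, plus strand: ctcgattgGTTGCCgccaaaagctcccacc
IFT46, chr11:118566106-118566135, minus strand: tcagccgcGTTGCCacccatagccgctaga
IFT81, chr12:110124349-110124378, plus strand: tagcaaccGTTGCCaaggagctcgactctg
IFT74, chr9:26946860-26946886, minus strand: ggagtcggGTTGCCccggctgtgttgc
IFT88, chr13:20567157-20567186, minus strand: gccgagccGTTGCCaagcgcggaatccaag
DYNC2LI1, chr2:43774015-43774044, minus strand: ccttctggGTTGCCatgggagcgacgtcgc
DYNC2H1, chr11:103109359-103109388, minus strand: cggtgggcGTTGCCctctcggggcacgcgc
DYNC2H1, chr11:103109425-103109454, minus strand: gcttcgcgGTTGCCaggggtagtcgctatg

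Counted from the start site, the element begins at −24 in ARL6 and at −12 in IFT122. DYNC2H1 holds 2 cores, at −51 and 16. The core lies between −51 and 17 in 10 of the 13 promoters, whereas in IFT46, BBS10 and IFT74 it lies at −196, −221 and −237.

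A few longer stretches, from 200 bases before to 20 after the start site, show promoters of genes that fell in 1 or both lines and hold different matches. Capitals mark matches to the core, its longer form, TGCGCA (the motif of NRF1), CCGGAAG (ETS factors), ACTACAA (ZNF143 and THAP11), AAGATGG (YY1) and CACGTG (E-box), each on either strand:
ARL6, chr3:97764558-97764777, plus strand: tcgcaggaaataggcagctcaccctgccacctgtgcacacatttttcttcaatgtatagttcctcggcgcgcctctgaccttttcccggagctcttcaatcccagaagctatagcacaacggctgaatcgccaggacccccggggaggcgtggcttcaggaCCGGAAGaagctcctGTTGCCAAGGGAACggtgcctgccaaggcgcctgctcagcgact
IFT57, chr3:108222405-108222624, minus strand: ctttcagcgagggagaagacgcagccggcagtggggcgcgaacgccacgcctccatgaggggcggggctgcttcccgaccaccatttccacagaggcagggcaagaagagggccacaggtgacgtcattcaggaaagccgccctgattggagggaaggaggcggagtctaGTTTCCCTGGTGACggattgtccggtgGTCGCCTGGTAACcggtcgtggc
BBS4, chr15:72686007-72686226, plus strand: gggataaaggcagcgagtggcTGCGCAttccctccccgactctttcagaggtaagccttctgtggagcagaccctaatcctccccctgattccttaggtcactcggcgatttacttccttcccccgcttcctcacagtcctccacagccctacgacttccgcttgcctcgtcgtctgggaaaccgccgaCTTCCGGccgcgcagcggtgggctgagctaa

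ARL6 has the paired element and an ETS match, IFT57 has 2 copies of the longer form, and BBS4 has no X-box core but 1 NRF1 and 1 ETS match. TGCGCA was found in 5 of the 30 promoters (BBS2, BBS4, IFT172, KIF3A and KIFAP3; 16.7%, against 13.5% of promoters of tested genes), and CCGGAAG in 6 (ARL6, BBS4, BBS10, IFT20, IFT81 and IFT88; 20%, against 18.9%). ACTACAA, whose factors are known to recruit the NSL subunit HCFC1, was in IFT20 only, AAGATGG in BBS1 only and CACGTG in IFT81 only, at 3.33% each, against 3.91%, 7.61% and 9.98% of tested genes. CCAAT, not marked above, was in 11 (36.7%, against 36.8%). Of the 30 promoters 27 (90.0%) were rich in CpG (GC above 50% and an observed over expected CpG ratio above 0.6), against 78.4% of tested genes. Only these letter patterns were searched, so a promoter without a match may hold a variant form. A match is a description of these letters and not a site of binding.

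Values are the deposited rlog values, a log2 scale on which genes with few reads are shrunk towards their mean. Each line was normalised on its own, so levels were not compared between lines, and since the values are not per gene length, levels were not compared between genes. All differences are knockdown minus non-targeting in log2 units with n = 3 libraries per arm, and adjusted p-values are from limma with Benjamini-Hochberg adjustment over all genes tested in the line. The labels leave unsaid whether the replicates came from separate cultures. The p-values therefore speak only of library-to-library spread, possibly a technical one. Depth is unknown. Library values are given as non-targeting against knockdown. KANSL2 itself fell by 0.39 in INA6 (76.4% of the control level) and by 1.21 in JJN3 (43.1%), with no overlap between arms in either line. The knockdown moved many genes: in INA6 3000 of 12511 tested genes (24.0%) were lower and 3084 (24.7%) higher, and in JJN3 3129 of 12282 (25.5%) were lower and 3135 (25.5%) higher. Centring each library on its median instead gave 2400 lower and 3904 higher in INA6, and 2571 lower and 3768 higher in JJN3.

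All 9 plasma cell markers were above the mean of 3 used as the filter in both lines. Of these, 6 were lower and 2 higher in INA6, against 24.0% and 24.7% of all tested genes. In JJN3 1 was lower and 5 were higher, against 25.5% and 25.5%. The summed level of the 9 markers, on the log2 scale, was 16.69 to 16.72 in the INA6 control libraries and 16.17 to 16.35 after knockdown. For JJN3 it was 16.48 to 16.52 and 16.61 to 16.66. Of 12 markers of motile ciliated cells 4 passed the filter in INA6 (FOXJ1 and CCDC39 higher, SPAG6 and CAPS lower) and 2 in JJN3 (none called). Either call was made for 48.6% of all tested genes in INA6 and 51.0% in JJN3. The summed level of the 12 markers was 8.94 to 9.06 in the controls and 9.02 to 9.13 after knockdown in INA6. In JJN3 it was 6.55 to 6.69 and 6.51 to 6.55. DNAI1, DNAI2, TEKT1, TPPP3 and PIFO were at 0 in all 6 JJN3 libraries, while in INA6 none was at 0 in all 6, and DNAI1, DNAI2, TEKT1 and TPPP3 were among those below 0 on average. The part of these markers in the results below was not tested.

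Of the 33 transport genes, 28 passed the filter in INA6 and 29 in JJN3, and the calls leaned to the lower side in both. In INA6 13 were lower (46.4%, against 24.0% of all tested genes) and 1 was higher (IFT22; 3.57%, against 24.7%). With 14 of 28 not called, the share called in either direction was near the 48.6% of all tested genes. The median difference was −0.12 against 0.00 for all tested genes. In JJN3 18 were lower (62.1%, against 25.5%), 0 were higher (against 25.5%) and 11 were not called. Either call was made for 51.0% of all tested genes there, and the median was −0.17 against 0.00. The 0 higher in JJN3 held in limma also at an unadjusted p below 0.05, while quantile normalisation and removal of the expression trend each called 1 higher. The arms did not overlap, with the knockdown lower, for 15 genes in INA6 (27.4% of all tested genes) and 20 in JJN3 (27.7%), and with the knockdown higher for 2 (27.7%) and 0 (28.4%). The largest fall of a transport gene was that of BBS10 in JJN3, to 72.4% of its control level, and 1.77% of tested genes fell further.

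**Figure D1:**
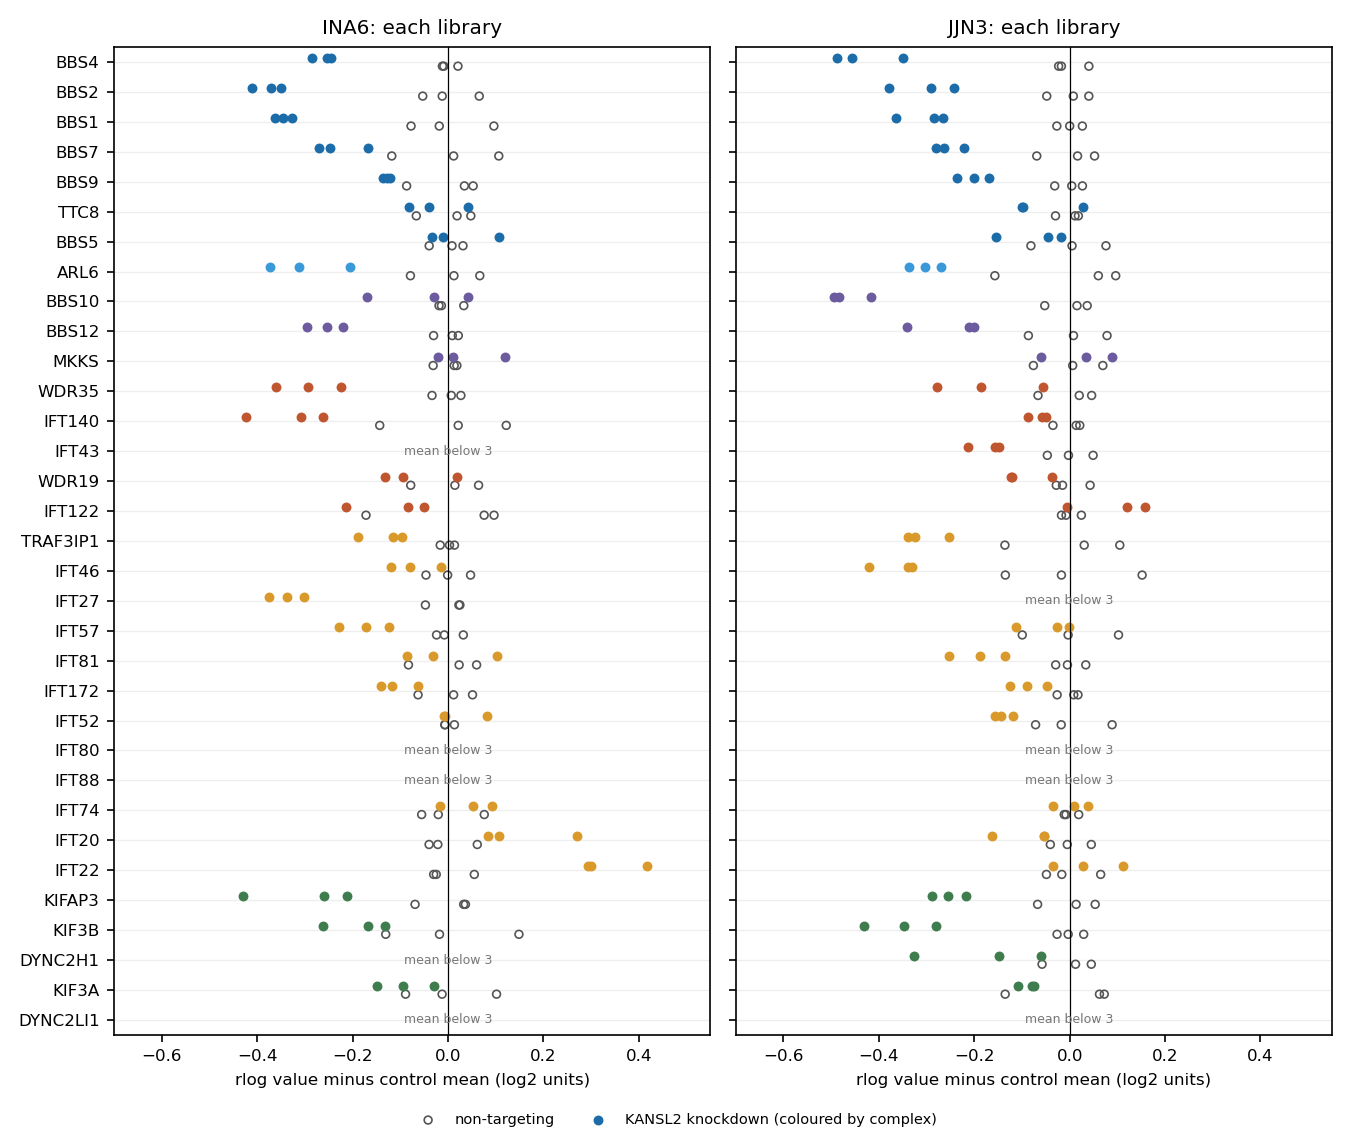
rlog value of each library minus the mean of the 3 non-targeting libraries of its line (log2 units), for each transport gene, in INA6 (left) and JJN3 (right). Open circles are non-targeting and filled circles knockdown libraries, with 1 colour per complex; the BBS4, BBS2 and BBS1 knockdown libraries sit left of all controls in both lines, whereas those of MKKS and IFT74 overlap the controls in both.

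Part of this lean was shared by other genes of similar level. Genes with a mean of 5 to 7, where most transport genes sat, were lower in 30.3% and higher in 15.6% of cases in INA6 (2270 genes, median −0.06) and lower in 35.4% and higher in 12.8% in JJN3 (2356 genes, median −0.06). In that band 8 of 17 transport genes were lower and 1 higher in INA6 (median −0.13), and 9 of 15 were lower in JJN3 (median −0.25). Of those with a mean of 3 to 5, 2 of 7 were lower in INA6 (17.7% of all genes in that band) and 5 of 9 in JJN3 (23.0%). At 7 to 9, 2 of 2 were lower in INA6 (28.8%) and 4 of 5 in JJN3 (29.6%). At a mean of 9 or more, where all genes leaned to the higher side in INA6 (19.8% lower, 37.9% higher, median 0.06), 1 of 2 transport genes was lower, and JJN3 had no transport gene there. Taking the trend of the change with level off the knockdown libraries left 11 lower and 2 higher in INA6, and 16 lower and 1 higher in JJN3.

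In the BBSome, 5 of the 7 subunits listed were lower in INA6 and the same 5, BBS1, BBS2, BBS4, BBS7 and BBS9, were lower in JJN3, with medians of −0.23 and −0.26. Of all tested genes 24.0% were lower in INA6 and 25.5% in JJN3. BBS4 (GRCh38.p14, chr15:72686207-72738473), whose protein is known to link the BBSome to centriolar satellites, read 7.23, 7.23 and 7.26 in the INA6 control libraries and 6.95, 6.98 and 6.99 after knockdown. In JJN3 BBS4 read 7.40, 7.41 and 7.47 in the controls and 7.08, 6.94 and 6.97 after knockdown. Every knockdown library was below every control library in both lines. The differences were −0.26 (SE 0.060, adjusted p = 0.00111) in INA6 and −0.43 (SE 0.057, adjusted p = 2.55e-07) in JJN3, where the level fell to 74.2% of control.

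BBS2 (chr16:56470403-56520024), a BBSome subunit that is needed early in its assembly, had control values of 6.46, 6.39 and 6.35 in INA6 and knockdown values of 6.03, 6.05 and 5.99. Its JJN3 values were 5.42, 5.51 and 5.48 in the controls and 5.18, 5.09 and 5.23 after knockdown. The arms were separate in both lines, with differences of −0.38 (SE 0.062, adjusted p = 3.74e-05) and −0.30 (SE 0.052, adjusted p = 1.38e-05). BBS2 showed the largest INA6 fall among the transport genes, to 77.0% of control. BBS1 (chr11:66510635-66533598), the subunit that contacts ARL6, had INA6 values of 6.51, 6.63 and 6.45 in the controls and 6.20, 6.19 and 6.17 after knockdown. For JJN3 the BBS1 values were 5.20, 5.25 and 5.23 against 4.94, 4.96 and 4.86. Again no library of 1 arm reached the other, and the differences were −0.34 (SE 0.064, adjusted p = 0.000142) and −0.30 (SE 0.049, adjusted p = 5.31e-06).

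BBS7 changed by −0.23 (SE 0.067, adjusted p = 0.00723) in INA6 and −0.26 (SE 0.055, adjusted p = 0.000267) in JJN3. Its INA6 call was lost without INA6 control replicate 3 (−0.18, adjusted p = 0.0539) and under quantile normalisation (−0.16, adjusted p = 0.0533). BBS9, another structural subunit, changed by −0.13 (SE 0.047, adjusted p = 0.0281) in INA6, a call lost in 10 of the 12 alternatives tried (adjusted p of up to 0.118), and by −0.20 (SE 0.043, adjusted p = 0.000268) in JJN3. The other two subunits were not called in either line. BBS5, which binds membrane lipids, differed by 0.02 (SE 0.061, adjusted p = 0.799) in INA6 and −0.07 (SE 0.046, adjusted p = 0.188) in JJN3, and TTC8 (BBS8) by −0.03 (SE 0.054, adjusted p = 0.712) and −0.06 (SE 0.040, adjusted p = 0.245). In INA6 and in JJN3 the arms of both genes overlapped.

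ARL6 (chr3:97764521-97801242), the GTPase that brings the BBSome to the membrane, was lower in both lines. It read 6.05, 5.96 and 6.11 in the INA6 controls and 5.67, 5.73 and 5.84 after knockdown. In JJN3 ARL6 read 5.51, 5.29 and 5.54 against 5.14, 5.18 and 5.11. The arms were separate in both, and the differences were −0.30 (SE 0.065, adjusted p = 0.000713) and −0.30 (SE 0.057, adjusted p = 5.20e-05). The difference between the lines was 0.01, with a 95% interval of −0.17 to 0.18.

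The 3 chaperonin-like genes, whose products work with the CCT chaperonin to build the BBSome, were called lower in both lines (BBS12), in JJN3 (BBS10) or in neither (MKKS). Of all tested genes 24.0% were lower in INA6 and 25.5% in JJN3. BBS12 (chr4:122700442-122744939) had values of 4.11, 4.06 and 4.10 in the INA6 controls against 3.83, 3.87 and 3.79 after knockdown. In JJN3 they were 5.13, 5.30 and 5.23 against 4.88, 5.01 and 5.02. No overlap was seen, and the differences were −0.26 (SE 0.047, adjusted p = 0.000116) and −0.25 (SE 0.053, adjusted p = 0.000215). BBS10 (chr12:76344474-76348415), known as a frequently mutated gene of Bardet-Biedl syndrome, read 6.55, 6.60 and 6.55 in the INA6 controls and 6.61, 6.54 and 6.40 after knockdown, with 2 knockdown libraries below and 1 above all controls. In JJN3 it read 7.32, 7.41 and 7.38 in the controls and 6.95, 6.88 and 6.88 after knockdown, a wide gap between the arms. The differences were −0.05 (SE 0.066, adjusted p = 0.535) and −0.47 (SE 0.056, adjusted p = 5.47e-08). MKKS, the third, had INA6 values of 9.40, 9.45 and 9.44 against 9.55, 9.44 and 9.41 and JJN3 values of 8.71, 8.63 and 8.78 against 8.80, 8.65 and 8.74. Its arms overlapped in both lines, at 0.04 (SE 0.051, adjusted p = 0.580) and 0.02 (SE 0.052, adjusted p = 0.749). The 8 CCT subunits themselves were all higher in both lines, with medians of 0.37 in INA6 and 0.29 in JJN3, where 24.7% and 25.5% of all tested genes were higher. CCT3 rose by 0.42 (adjusted p = 1.01e-07) and 0.38 (adjusted p = 1.14e-08), and CCT6A by 0.41 (adjusted p = 8.73e-08) and 0.36 (adjusted p = 1.03e-08).

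**Figure D2:**
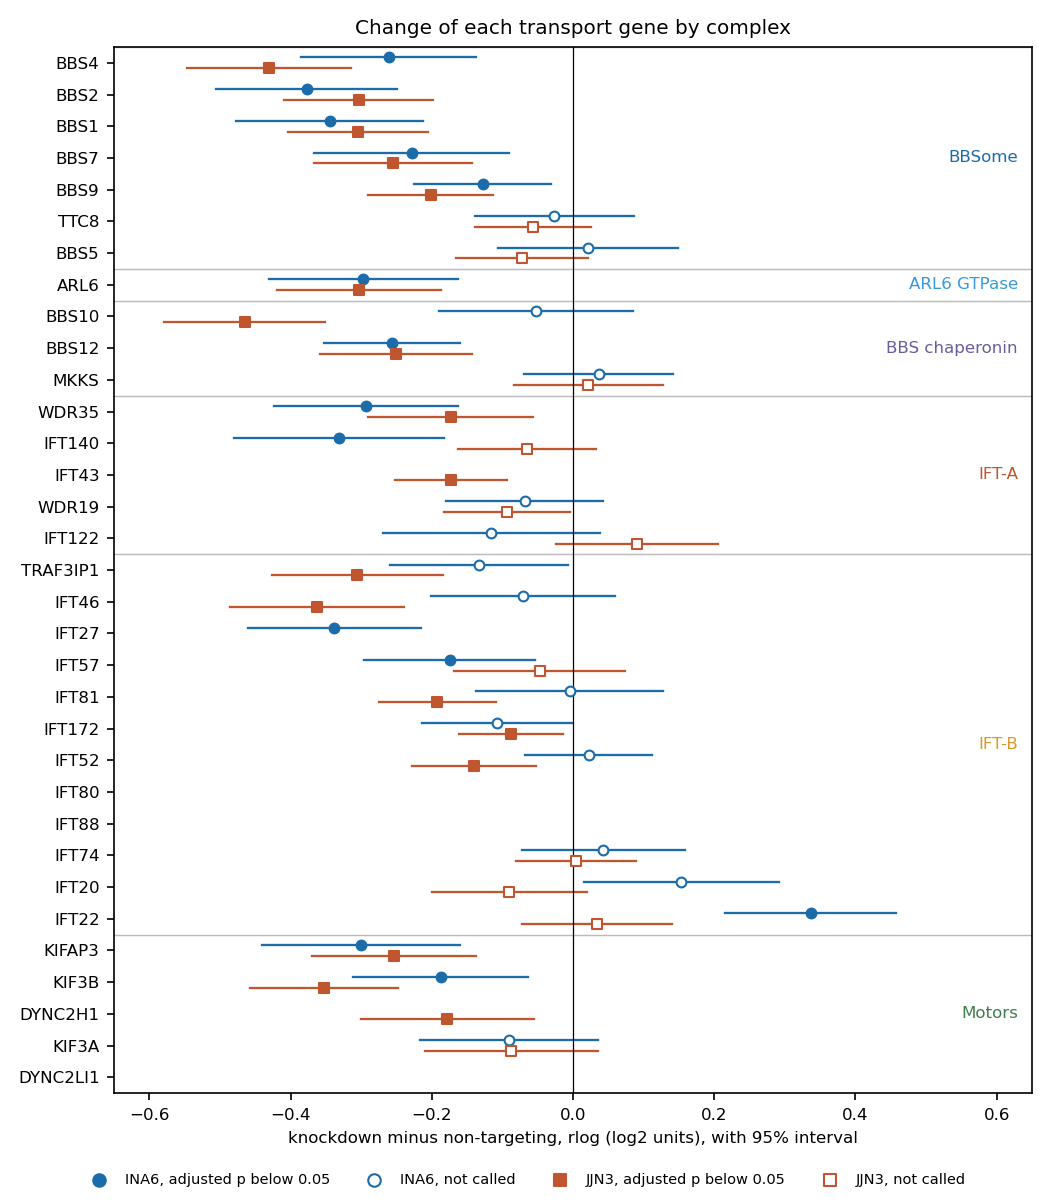
Difference between knockdown and non-targeting libraries for each transport gene (log2 units, with the 95% interval of the limma fit), grouped by complex, with INA6 as circles and JJN3 as squares; filled symbols have an adjusted p below 0.05 and genes below the filter have no symbol. Filled symbols lie left of 0 for every called gene except IFT22 in INA6.

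Of the 5 IFT-A subunits, WDR35 was lower in both lines, IFT140 in INA6 and IFT43 in JJN3. These were 2 of 4 tested in INA6 and 2 of 5 in JJN3, against 24.0% and 25.5% of all tested genes. WDR35 (IFT121; chr2:19910263-19990105) read 7.15, 7.11 and 7.17 in the INA6 controls and 6.92, 6.85 and 6.78 after knockdown. For JJN3 it read 8.21, 8.10 and 8.19 against 7.89, 8.11 and 7.98. The arms were separate in INA6 and overlapped narrowly in JJN3, where 1 knockdown library reached the lowest control. The differences were −0.29 (SE 0.063, adjusted p = 0.000595) and −0.17 (SE 0.057, adjusted p = 0.0120), the JJN3 call being lost without JJN3 control replicate 1 (−0.15, adjusted p = 0.0556) or knockdown replicate 1 (−0.12, adjusted p = 0.0831).

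IFT140 (chr16:1510427-1612072), part of the IFT-A core, had INA6 values of 6.78, 6.88 and 6.62 in the controls and 6.50, 6.34 and 6.45 after knockdown. Its JJN3 values were 5.08, 5.13 and 5.14 against 5.07, 5.06 and 5.03. Both lines had separate arms, but the gap was wide only in INA6, at −0.33 (SE 0.072, adjusted p = 0.000667) against −0.07 (SE 0.048, adjusted p = 0.261) in JJN3, which was not called. IFT43 (chr14:75985763-76084073), a peripheral IFT-A subunit, read 3.97, 3.88 and 3.92 in JJN3 controls and 3.71, 3.77 and 3.77 after knockdown, a difference of −0.17 (SE 0.039, adjusted p = 0.000491). In INA6 it was below the filter, at 2.75, 2.72 and 2.75 against 2.67, 2.68 and 2.72. IFT122 (chr3:129440224-129520507) holds the paired element at its start site, as WDR19 does further upstream, and was not called. It read 6.74, 6.72 and 6.47 against 6.59, 6.43 and 6.56 in INA6, and 6.03, 5.99 and 6.00 against 6.12, 6.16 and 6.00 in JJN3. The arms overlapped in both lines and the differences had opposite signs, −0.12 (SE 0.074, adjusted p = 0.203) and 0.09 (SE 0.056, adjusted p = 0.179). Without INA6 control replicate 3 IFT122 was called lower in INA6 (−0.20, adjusted p = 0.0322), and in JJN3 it was called higher under quantile normalisation (0.15, adjusted p = 0.0261) and removal of the expression trend (0.15, adjusted p = 0.0242). WDR19 (IFT144) read 4.42, 4.49 and 4.43 in JJN3 controls and 4.32, 4.41 and 4.33 after knockdown, −0.09 (SE 0.044, adjusted p = 0.0723), and differed by −0.07 (SE 0.053, adjusted p = 0.299) in INA6. Without JJN3 knockdown replicate 2 it was called lower in JJN3 (−0.12, adjusted p = 0.0443).

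In IFT-B, the larger complex, 2 of 10 tested subunits were lower and 1 higher in INA6 (median −0.04), where 24.0% of all tested genes were lower and 24.7% higher, so the INA6 count is no more than the background. In JJN3 5 of 9 were lower (median −0.09), where 25.5% of all tested genes were. IFT27 (chr22:36758211-36776119), a small GTPase of IFT-B that is known to help the BBSome leave the cilium, was lower in INA6. It read 5.84, 5.91 and 5.91 in the controls and 5.51, 5.55 and 5.58 after knockdown, with separate arms and a difference of −0.34 (SE 0.059, adjusted p = 7.75e-05). In JJN3 all 6 libraries lay between −1.02 and −1.0, near the floor, so no change could be measured there. IFT22 (chr7:101310914-101321823), the other GTPase of the complex, was the 1 transport gene that rose. In INA6 its control values were 5.09, 5.01 and 5.01 and its knockdown values 5.46, 5.33 and 5.34, with every knockdown library above every control. In JJN3 they were 5.16, 5.19 and 5.27 against 5.23, 5.32 and 5.17, with overlapping arms. The differences were 0.34 (SE 0.058, adjusted p = 7.26e-05) and 0.03 (SE 0.052, adjusted p = 0.603).

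IFT57 (chr3:108160812-108222424) read 7.88, 7.92 and 7.86 in INA6 controls and 7.71, 7.66 and 7.76 after knockdown, and 6.45, 6.34 and 6.25 against 6.23, 6.35 and 6.32 in JJN3. It was lower in INA6, at −0.17 (SE 0.058, adjusted p = 0.0173), a call lost in 5 of 13 alternatives, among them without INA6 control replicate 2 (−0.16, adjusted p = 0.0672) or knockdown replicate 2 (−0.15, adjusted p = 0.0875). In JJN3 it was not called, at −0.05 (SE 0.059, adjusted p = 0.527).

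IFT46 (chr11:118544543-118576898), a subunit of the IFT-B core, showed the largest JJN3 fall of the complex. Its JJN3 values were 5.85, 5.73 and 6.02 in the controls and 5.53, 5.44 and 5.52 after knockdown. In INA6 they were 6.77, 6.86 and 6.82 against 6.80, 6.70 and 6.74. The arms were separate in JJN3 and overlapped in INA6, with differences of −0.36 (SE 0.060, adjusted p = 9.52e-06) and −0.07 (SE 0.063, adjusted p = 0.361). TRAF3IP1 (IFT54; chr2:238320518-238400900), which binds tubulin and is also known as a TRAF3 partner, read 6.11, 5.94 and 6.18 against 5.75, 5.82 and 5.74 in JJN3, and 6.25, 6.22 and 6.24 against 6.12, 6.05 and 6.14 in INA6. The knockdown libraries were below all controls in both lines, at −0.31 (SE 0.059, adjusted p = 7.80e-05) in JJN3, which was called, and −0.13 (SE 0.061, adjusted p = 0.0740) in INA6, which was not, except in limma without a trend (adjusted p = 0.0335). IFT81 (chr12:110124357-110218793), which with IFT74 binds tubulin cargo, read 4.00, 4.07 and 4.03 in JJN3 controls and 3.90, 3.84 and 3.78 after knockdown. Its JJN3 arms were separate, at −0.19 (SE 0.040, adjusted p = 0.000206), whereas in INA6 it read 5.38, 5.48 and 5.52 against 5.56, 5.43 and 5.37, with full overlap and a difference of −0.0050 (SE 0.064, adjusted p = 0.957).

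Among the remaining IFT-B genes, IFT52 was lower in JJN3 at −0.14 (SE 0.043, adjusted p = 0.00754) and stood at 0.02 (SE 0.043, adjusted p = 0.696) in INA6. Its JJN3 call was lost without JJN3 control replicate 1 (−0.10, adjusted p = 0.0790) and under quantile normalisation (−0.10, adjusted p = 0.0556). IFT172 was called in JJN3 at −0.09 (SE 0.036, adjusted p = 0.0436), a call lost in 10 of 12 alternatives, and stood at −0.11 (SE 0.051, adjusted p = 0.0852) in INA6. IFT20, the Golgi-linked subunit, was not called in either line, at 0.15 (SE 0.067, adjusted p = 0.0619) and −0.09 (SE 0.054, adjusted p = 0.164). It was called higher in INA6 under 4 alternatives: median centring, quantile normalisation, limma without a trend and removal of the expression trend. IFT74, the partner of IFT81, stood at 0.04 (SE 0.055, adjusted p = 0.545) and 0.0039 (SE 0.041, adjusted p = 0.945). IFT80 and IFT88 were below the filter in both lines, IFT80 at −1.97 to −1.96 in INA6 and −0.06 to −0.02 in JJN3, and IFT88 at 0.54 to 0.61 and −0.74 to −0.71. A low value does not show absence, since EIF4A1, a translation factor that every cell uses, is listed at 0 in all 12 libraries, and IFT80 shares exons with the annotated readthrough transcript TRIM59-IFT80.

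The kinesin-2 motor carries IFT trains outward and is also known to move vesicles in cells without cilia. KIFAP3 (chr1:169921329-170085184), its accessory subunit, read 6.32, 6.21 and 6.32 in the INA6 controls and 6.07, 6.02 and 5.85 after knockdown. In JJN3 KIFAP3 read 6.74, 6.62 and 6.71 against 6.44, 6.47 and 6.40. The arms were separate in both lines, at −0.30 (SE 0.067, adjusted p = 0.000906) and −0.25 (SE 0.057, adjusted p = 0.000416). KIF3B (chr20:32277651-32335011), a motor subunit, read 9.67, 9.79 and 9.95 against 9.64, 9.67 and 9.54 in INA6. For JJN3 its values were 8.64, 8.61 and 8.67 against 8.36, 8.29 and 8.21. The JJN3 arms were far apart, at −0.35 (SE 0.051, adjusted p = 1.25e-06), while the INA6 arms just failed to overlap, at −0.19 (SE 0.060, adjusted p = 0.0131), and the INA6 call was lost without control replicate 3 (−0.11, adjusted p = 0.135). KIF3A, the motor subunit that pairs with KIF3B, read 5.00, 5.07 and 5.19 against 5.06, 4.99 and 4.94 in INA6, and 6.97, 6.77 and 6.96 against 6.82, 6.83 and 6.79 in JJN3, with overlapping arms in both. It was not called, at −0.09 (SE 0.060, adjusted p = 0.222) and −0.09 (SE 0.060, adjusted p = 0.230), but was called lower in JJN3 without control replicate 2 (−0.16, adjusted p = 0.0454).

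DYNC2H1 (chr11:103109426-103479863), the heavy chain of the dynein-2 motor, read 5.85, 5.95 and 5.92 in JJN3 controls and 5.76, 5.85 and 5.58 after knockdown. The highest knockdown library was just below the lowest control (both round to 5.85), and the difference was −0.18 (SE 0.060, adjusted p = 0.0142). The call was lost in 4 of 13 alternatives, among them without JJN3 control replicate 2 (−0.16, adjusted p = 0.0644) or knockdown replicate 3 (−0.10, adjusted p = 0.169). In INA6 DYNC2H1 was below the filter, at 2.50, 2.38 and 2.53 against 2.45, 2.44 and 2.47. DYNC2LI1, the light intermediate chain, was below it in both lines, at 2.87 to 3.05 (INA6) and 1.90 to 2.00 (JJN3).

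Between the lines, 27 transport genes could be compared. Of these, 10 were lower in both (BBS1, BBS2, BBS4, BBS7, BBS9, BBS12, ARL6, WDR35, KIF3B and KIFAP3), where 12.3% of the 11137 genes tested in both lines were. Another 2 were lower in INA6 and not called in JJN3 (IFT140 and IFT57), where 8.79% of all genes were, 6 were lower in JJN3 and not called in INA6 (11.8%), and 8 were called in neither (28.9%). The difference was negative in both lines for 20, against 33.5% of all genes. Across the 27 genes the INA6 and JJN3 differences had a Pearson correlation of 0.51, and across all 11137 genes one of 0.49. These are descriptions, since genes are not independent replicates, and each line has its own controls.

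The change itself differed between the lines for 6 of the 27 genes, against 30.0% of all genes. BBS10 differed most, by 0.41 (SE 0.087, 95% interval 0.24 to 0.59, adjusted p = 0.000188). IFT22 differed by 0.30 (SE 0.078, 95% interval 0.15 to 0.46, adjusted p = 0.00229) and IFT46 by 0.29 (SE 0.087, 95% interval 0.12 to 0.47, adjusted p = 0.00807), and in both the INA6 difference was the more positive. IFT140 went the other way, at −0.27 (SE 0.086, 95% interval −0.44 to −0.09, adjusted p = 0.0151), with the lower value in INA6. IFT20 (0.24) and IFT52 (0.16) were also called, though not in 5 of 18 and 8 of 17 alternatives. IFT140 was not called without INA6 control replicate 2 (−0.21, adjusted p = 0.0890) or knockdown replicate 2 (−0.22, adjusted p = 0.0760), and IFT46 not without JJN3 control replicate 3 (0.22, adjusted p = 0.0568). IFT81, KIF3B, IFT122 and TRAF3IP1 were not called in the analysis reported, but each gained a call when 1 library was left out. For IFT122 this was INA6 control replicate 3 (−0.29, adjusted p = 0.0149) or JJN3 knockdown replicate 3 (−0.25, adjusted p = 0.0397). IFT81 was also called with all libraries under median centring (0.20, adjusted p = 0.0409), quantile normalisation (0.21, adjusted p = 0.0261) and removal of the expression trend (0.21, adjusted p = 0.0340). None of the BBSome subunits was called, with INA6 minus JJN3 values from −0.07 (BBS2, 95% interval −0.24 to 0.09) to 0.17 (BBS4, 0.0040 to 0.34). The amount of KANSL2 left differed between the lines, at 76.4% in INA6 and 43.1% in JJN3, and its part in these differences was not tested. The rlog values of each line were also shrunk on their own, so shrinkage of a gene can differ between the lines. The part of shrinkage was not tested either.

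**Figure D3:**
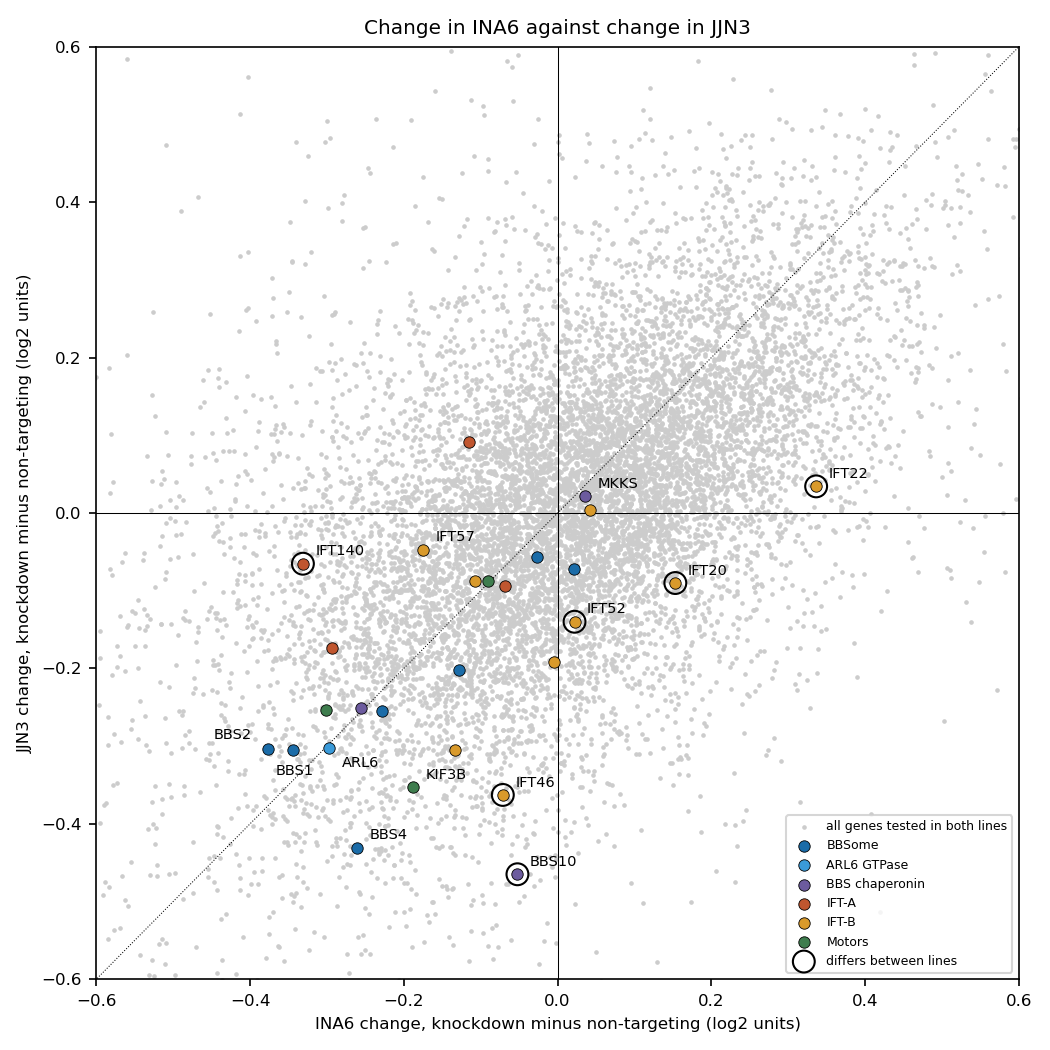
INA6 difference (horizontal) against JJN3 difference (vertical), knockdown minus non-targeting in log2 units, for the transport genes in colours by complex over the 11137 genes tested in both lines in grey; 234 genes beyond 0.6 in either line lie outside the axes. Circled genes have a difference between the lines with an adjusted p below 0.05; BBS2, BBS1, ARL6 and BBS4 lie in the lower left, with falls in both lines.

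Transport genes both with and without the X-box core were called lower. In INA6 3 of 10 tested transport genes with GTTGCC were lower (median −0.06) and 8 of 15 without it (median −0.17). In JJN3 6 of 10 with it were lower (median −0.19) and 10 of 16 without it (median −0.16). The genes without the core include IFT57 and WDR19, which hold the longer form. They also include KIF3B, TRAF3IP1 and BBS12, which hold GTTGCT, a form that differs from the core in its last letter and was not searched. The counts without the core are therefore not counts of genes free of X-box-like letters. ARL6, with the paired element, fell in both lines, while IFT122, with a like element, was called in neither with all libraries and the reported scaling. Over all tested genes, 26.8% of those with the core and 23.5% of those without were lower in INA6, and 28.4% and 25.3% in JJN3. These shares are descriptions, with no test. Of the RFX family, RFX1 was lower in JJN3 (−0.39, adjusted p = 1.20e-06) and not called in INA6 (−0.06, adjusted p = 0.479). RFX7 was lower in JJN3 (−0.20, adjusted p = 0.000633) and RFX5 higher there (0.14, adjusted p = 0.00270). In INA6 neither RFX7 (0.04) nor RFX5 (−0.08) was called. RFX3 was not called in either line (−0.13 and 0.10).

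Other subunits of the same machinery leaned the same way. Of 13 further transport genes 11 were tested in each line. In INA6 9 were lower and 0 higher (median −0.26), against 24.0% and 24.7% of all tested genes. None was higher there at an unadjusted p below 0.05 either. In JJN3 8 were lower and 1 higher (median −0.17), against 25.5% and 25.5% of all tested genes. CLUAP1, an IFT-B subunit, changed by −0.37 (adjusted p = 4.37e-05) and −0.26 (adjusted p = 0.000321), and WDR60 (DYNC2I1), a dynein-2 intermediate chain, by −0.36 (adjusted p = 6.13e-05) and −0.37 (adjusted p = 1.19e-05). TTC30B, another IFT-B subunit, changed by −0.55 (adjusted p = 9.38e-07) in INA6 and by −0.17 (adjusted p = 0.00126) in JJN3, and its near-identical paralog TTC30A by −0.22 and −0.17, where reads of the 2 genes may be split. TTC26 (IFT56) changed in JJN3 by −0.27 (adjusted p = 4.69e-05). BBIP1, the last BBSome subunit, was lower in both lines (−0.28 and −0.19), whereas WDR34, the partner of WDR60, was lower in INA6 (−0.17, adjusted p = 0.0224) and higher in JJN3 (0.22, adjusted p = 0.000689).

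The transition zone, the gate at the ciliary base, had 13 lower and 1 higher of 22 tested genes in INA6 (median −0.16). In JJN3 it had 12 lower and 1 higher of 22 (median −0.15). Of all tested genes 24.0% were lower and 24.7% higher in INA6, and 25.5% and 25.5% in JJN3. TMEM107 changed by −0.42 (adjusted p = 1.35e-05) and −0.44 (adjusted p = 7.82e-07), and MKS1 changed by −0.57 (adjusted p = 7.17e-10) in JJN3 and −0.26 (adjusted p = 0.00187) in INA6. Basal body and distal appendage genes had 4 lower and 1 higher of 16 in INA6 (median −0.03) and 6 lower and 1 higher of 16 in JJN3 (median −0.05). Their share lower was 25% in INA6, near that of all tested genes, and 37.5% in JJN3. TTBK2, the kinase that starts ciliogenesis, showed the largest falls of the basal body list, −0.33 (adjusted p = 0.000417) and −0.64 (adjusted p = 3.24e-10). Of 12 ciliary GTPase and lipid-cargo genes 6 were lower and 1 higher in INA6, and 3 lower and 1 higher in JJN3. The share lower was 50% in INA6 and 25% in JJN3, the latter near that of all tested genes. PDE6D stood at −0.26 (adjusted p = 0.00145) and −0.35 (adjusted p = 4.40e-06), and RAB11A at −0.25 (adjusted p = 0.000217) and −0.20 (adjusted p = 0.000406).

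Hedgehog genes, the pathway best known to need intraciliary transport, were mostly below the filter, with 6 of 13 tested in each line. In INA6 2 of the 6 were lower and 2 higher (against 24.0% and 24.7% of all tested genes). In JJN3 2 were lower and 1 higher (against 25.5% and 25.5%). Among them, PTCH1 was lower in INA6 (−0.30, adjusted p = 0.000121), SUFU was lower in both lines (in JJN3 −0.15, adjusted p = 0.0345), and KIF7 was higher in INA6 (0.36, adjusted p = 8.42e-05) and JJN3 (0.16, adjusted p = 0.0139). The cytoplasmic motors, dynein-1 and kinesin-1, were divided: of 13 genes 2 were lower and 3 higher in INA6, and 4 lower and 2 higher in JJN3. Their share lower was 15.4% in INA6 and 30.8% in JJN3, against 24.0% and 25.5% of all tested genes. Their share higher was 23.1% and 15.4%, against 24.7% and 25.5%. DYNC1H1, the heavy chain of dynein-1, rose by 0.34 (adjusted p = 5.12e-06) and 0.34 (adjusted p = 5.38e-08), and KLC4, a kinesin-1 light chain, changed by −0.26 (adjusted p = 0.00166) and −0.49 (adjusted p = 1.93e-08). FOXJ1, the regulator of motile cilia, was higher in INA6 (0.22, adjusted p = 0.0110) and below the filter in JJN3.

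**Figure D4:**
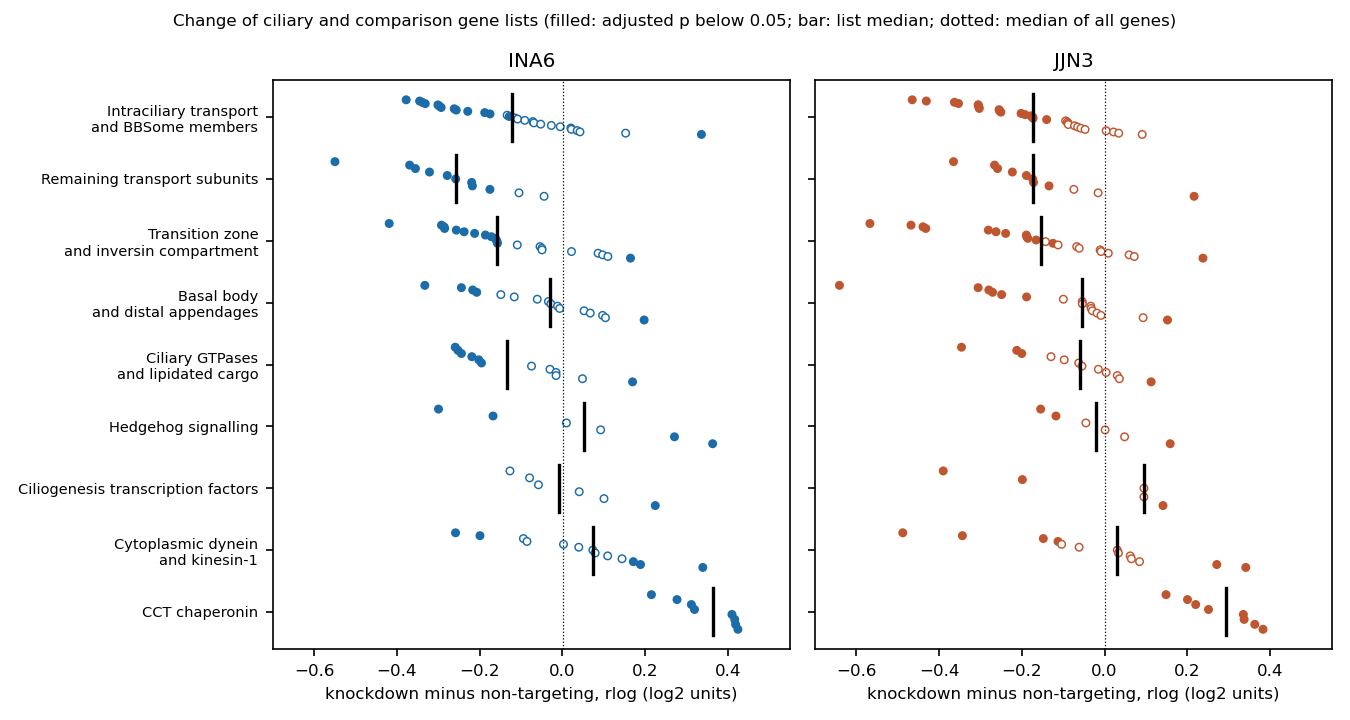
Difference between knockdown and non-targeting libraries (log2 units) of each tested gene in 9 gene lists, INA6 on the left and JJN3 on the right; filled points have an adjusted p below 0.05, the bar is the list's median and the dotted line the median of all tested genes. The upper 3 lists have medians between −0.26 and −0.12 in both lines, and all 8 CCT chaperonin genes lie right of the dotted line.

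Some values may include reads of a neighbour. By the RefSeq annotation of GRCh38.p14, 8 of the 33 genes overlap another protein-coding gene of the tables, and since no source used here gives the strand setting of the counting, reads from overlapping genes on opposite strands cannot be told apart. IFT46 overlaps TMEM25, which was lower in INA6 (−0.42) and JJN3 (−0.66), and ARCN1, which was not called in INA6 (0.03) and was higher in JJN3 (0.12). BBS1 overlaps ZDHHC24, lower in both lines (−0.38 and −0.37). IFT140 overlaps TELO2, which rose in both lines (0.35 and 0.52), and TMEM204, below the filter in both, and BBS2 overlaps OGFOD1, which stood at 0.12 in INA6, where it was not called, and rose by 0.22 in JJN3. The 4 others are IFT20 (TMEM97, 0.08 in INA6, not called, and 0.11 in JJN3, higher), IFT74 (PLAA, 0.10, not called, and 0.25, higher, and LRRC19, below the filter), IFT172 (KRTCAP3, not called in INA6 and below the filter in JJN3) and DYNC2LI1 (ABCG5, below the filter). Among genes that start from the same stretch of DNA in the opposite direction, TNFAIP1, 289 bases from IFT20, was lower in both lines (−0.29 and −0.37), where IFT20 was not called. SMC4, 425 bases from IFT80, was higher in both (0.29 and 0.18). MBD4, 276 bases from IFT122, was lower in INA6 (−0.16) and not called in JJN3 (0.10). The part of these neighbours in the values of the transport genes was not tested.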

How the data were processed

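Messenger RNA of INA6 and JJN3 cells was analysed in 12 libraries, 3 per group, grouped by their titles. The 4 JJN3 chromatin accessibility libraries were not analysed here. Poly(A) RNA was bound to poly-T beads and primed with random hexamers, per the labels' protocols. The submitters' processing notes name Trim Galore, Bowtie2, HTSeq, DESeq2 and hg38. Strandedness, versions, settings and annotation: not given in the sources used here. The authors deposited 1 table of rlog values per line, on the log2 scale, normalised within the line by size factors, so a change is relative to the other genes and depth is unknown. At exactly 0 in all 6 libraries were 8911 symbols in INA6 and 10073 in JJN3.

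A gene entered a line's fit when its mean value in that line reached 3. The fits used limma 3.58.1 in R 4.3.3 (lmFit, eBayes with trend=TRUE, no block). Genes were called, two-sided, at a Benjamini-Hochberg adjusted p below 0.05. For the comparison of lines, the INA6 minus JJN3 difference was set against the combined standard error of both fits (root of the sum of squares, degrees of freedom added) and adjusted over 11137 genes. The procedure was tested on simulated data. No exact permutation test was run, since 3 against 3 libraries allow no p below 0.1. The named genes are the 33 members, with all library values for up to 3 per complex and line with the smallest p and up to 4 for the difference between lines, plus up to 3 genes of each ciliary list; not all of the latter are printed. BBIP1, TTC30A, WDR34, RFX3 and the overlapping or neighbouring genes were added for completeness, some after their values were seen. Members and lists were chosen with earlier results of these data known, so no list was tested. Alternatives were median centring, quantile normalisation, other filters, limma without a trend, a replicate block, 1 fit over both tables, leaving out each library and, chosen after seeing the data, removal of the trend with expression level. Motifs were searched in 1 promoter per gene, the first listed by RefSeq.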

Additional observations from a re-analysis of the deposited data

Results flagged for a closer look

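The knockdown change differed between INA6 and JJN3, by the test of the difference itself, for 6 of the 27 transport genes compared. Of all genes tested in both lines 30.0% did, so the count is no more than the background. INA6 minus JJN3 was 0.41 (SE 0.087, 95% interval 0.24 to 0.59, adjusted p = 0.000188) for BBS10, 0.30 (SE 0.078, 95% interval 0.15 to 0.46, adjusted p = 0.00229) for IFT22, 0.29 (SE 0.087, 95% interval 0.12 to 0.47, adjusted p = 0.00807) for IFT46, 0.24 (SE 0.086, 95% interval 0.07 to 0.41, adjusted p = 0.0254) for IFT20, 0.16 (SE 0.061, 95% interval 0.04 to 0.28, adjusted p = 0.0375) for IFT52 and −0.27 (SE 0.086, 95% interval −0.44 to −0.09, adjusted p = 0.0151) for IFT140. BBS10 and IFT46 were lower in JJN3 and not called in INA6, IFT22 was higher and IFT140 lower in INA6 and neither was called in JJN3. IFT20 stood at 0.15 in INA6 and −0.09 in JJN3, not called in either line, and its call between the lines was lost in 5 of 18 alternatives. That of IFT52 was lost in 8 of 17. BBS10 and IFT22 kept it in all 18 that were run.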

How the results depend on the processing

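No difference of a transport gene that was called changed sign under any alternative run. INA6 falls among transport genes numbered 10 to 13 over all alternatives and JJN3 falls 13 to 18. The rises numbered 2 in INA6 under median centring, quantile normalisation, limma without a trend and removal of the expression trend (1 in the analysis reported), and 1 in JJN3 under quantile normalisation and removal of the expression trend (0 reported); the cause was not tested. Leaving out each library gave 11 to 13 falls and 1 rise in INA6, 16 to 18 falls and 0 rises in JJN3, and 3 to 8 genes that differ between lines (6 reported), the 3 without INA6 control replicate 2. Over all genes it gave 5034 to 6093 calls in INA6, 5332 to 6078 in JJN3 and 2723 to 3434 between lines. Of the 14 called transport genes in INA6 10 kept their call throughout, of 18 in JJN3 14, and of 6 between lines 2 (BBS10 and IFT22). Calls were gained by 3 genes in INA6, 3 in JJN3 and 4 between lines, among them IFT81, called in 7 of 17 alternatives. With the replicate number as a block, INA6 had 5626 called genes, JJN3 6205 and the comparison between lines 2976, with 13 falls and 1 rise of transport genes in INA6, 17 falls and 0 rises in JJN3, and 6 between lines. The labels do not say whether libraries of the same number belong together. Deviations of same-numbered libraries correlated at −0.179, −0.0678 and −0.296 in INA6 and at 0.00452, −0.0140 and 0.00188 in JJN3. Those of differently numbered libraries ranged from −0.0686 to 0.240 in INA6 and from −0.0556 to 0.0637 in JJN3. Deviations were taken from each arm's own mean of 3 libraries, so these values cannot decide whether the numbers mark pairs. Depth is unknown and rlog values understate changes of genes with few reads, so the 5 transport genes below the filter in INA6 and the 4 in JJN3 could not be assessed, and a change in the RNA content of cells is invisible to these values.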
